A study of Mus musculus with 12 samples.

Results

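Mir351, Mir503 and Mir322 are microRNA precursor genes that lie close together on the mouse X chromosome, inside the long non-coding RNA gene C430049B03Rik, their host. These 4 genes, picked by their symbols, were followed in 12 small RNA libraries. They make up 5 of the 4529 transcripts and 4 of the 3942 gene symbols in each deposited table, because the host has 2 transcripts. The 4 were singled out because Mir351 was low with 1 of the 2 guides against Miat. Every value of the members with the Miat guides is therefore given as a description, with no test.

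A microRNA is cut from a hairpin precursor, loaded into an Argonaute protein and directed to messenger RNAs mainly by its seed, the bases from position 2 to 8. Several microRNAs can be cut from one host transcript, and they can still reach different levels, because each hairpin is processed and each mature strand is stabilised on its own. The rodent miR-322 corresponds to human miR-424, and miR-322 and miR-503 are known for holding back the cell cycle, for example when myoblasts stop dividing. Medulloblastoma is a tumour of the cerebellum, and tumours driven by Smoothened arise from granule neuron progenitors.

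The libraries came from stem-like medulloblastoma cells of cerebellar origin. All of them, controls included, carry the genotype Math1-Cre; SmoM2, in which Cre from the Math1 promoter, active in granule neuron progenitors, switches on a constantly active Smoothened. The groups are named by their guide RNA in a CRISPR experiment. The control guide sgGal4-4, against a yeast gene, has 4 libraries whose cells are labelled WT. Guides sgMiat-6 and sgMiat-96 are labelled Miat knockdown and have 2 libraries each, and Miat is a long non-coding RNA gene. Guides sgMtdh-1 and sgMtdh-2 are labelled Mtdh knockdown and also have 2 libraries each, and Mtdh codes for metadherin, an RNA-binding protein linked to tumour growth. The labels give neither the age nor the number of animals, nor whether the libraries of a guide are separate cultures. The p-values then cover only how these libraries vary among themselves, and that variation could be technical.

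Total counts per library ran from 23318 to 164537, and counts on microRNA precursors from 1015 to 7287. Rn45s, the ribosomal RNA precursor, took between 53.0% and 82.7% of all counts. The targeted gene Miat had 49 and 30 counts in the libraries labelled sgMiat-6 and at most 2 in every other library, the controls included. These counts go against the knockdown label, and it was not tested whether small RNA reads on Miat report its level. The tables hold non-coding RNA and so give no check of Mtdh. Of the markers for other cell types, those of neurons summed to 28 counts over the 12 libraries, 12 on Mir128-1 and 16 on Mir128-2, with Mir124a listed at 0. Oligodendrocyte, vascular wall, endothelial, blood and muscle markers summed to at most 8 counts per list. The neural progenitor precursors Mir9-1, Mir9-2, Mir9-3 and Mir92b summed to 919. The Mir9 copies had 250, 234 and 235 of these, with nearly the same counts in most libraries. They may hold the same reads, so sums and shares of this list can count those more than once.

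The 3 precursors sit on the minus strand of chromosome X in the build GRCm38. Mir322 comes first in the direction of transcription, at chrX:53054255-53054349. Mir503 follows after a gap of 200 bases at chrX:53053984-53054054, and Mir351 after a further 630 bases at chrX:53053255-53053353. C430049B03Rik spans chrX:53053112-53057190. Its 2 transcripts have lengths of 2993 and 2707 bases, as recovered from the deposited FPKM values. The GENCODE exons add up to exactly these lengths once their outer ends are extended to the RefSeq span. In that model the last of 4 exons, chrX:53053112-53055490, covers all 3 precursors, so each is exonic in the host. The transcripts differ only in the third exon, which is 309 bases long in one and 23 in the other.

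**Figure D1:**
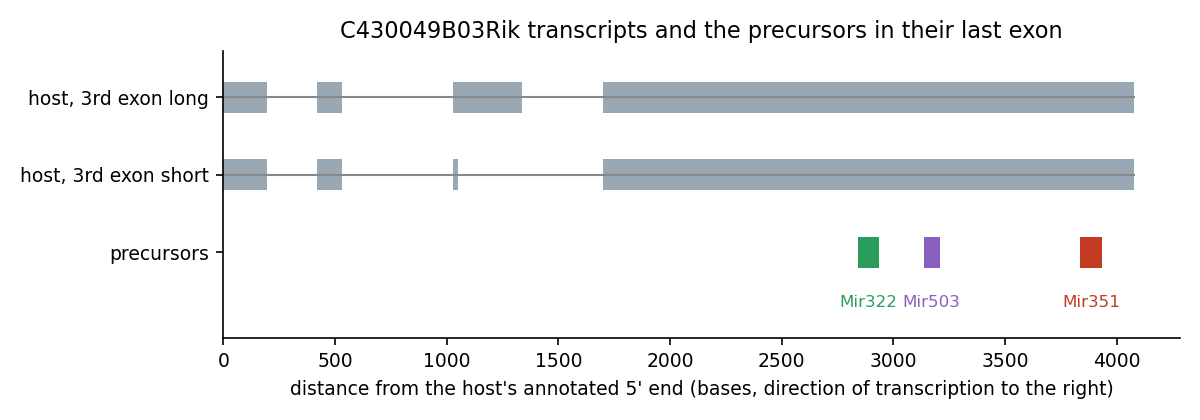
Map of the host transcripts and the precursors, drawn to scale against the distance in bases from the annotated 5' end of the host, with transcription to the right. Grey boxes are exons, and the coloured boxes of Mir322, Mir503 and Mir351 all fall within the last exon, which is 2379 bases long.

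The mature sequences show how the cluster splits into separate seed families. They are taken from RefSeq (GRCm38.p6), 5' to 3', with the seed in capitals. The first lines set miR-351-5p beside the miR-125 products that carry the same seed.
miR-351-5p: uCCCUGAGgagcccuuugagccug
miR-125a-5p: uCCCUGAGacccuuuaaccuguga
miR-125b-5p: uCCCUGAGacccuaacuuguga
The next lines set miR-322-5p and miR-503-5p beside members of the miR-15/16 family.
miR-322-5p: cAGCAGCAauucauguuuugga
miR-16-5p: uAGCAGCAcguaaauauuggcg
miR-15a-5p: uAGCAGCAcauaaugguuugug
miR-503-5p: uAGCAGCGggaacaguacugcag

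The seed of miR-351-5p, CCCUGAG, is shared by 5 of the 1679 mature mouse microRNAs in the RefSeq table. The seed of miR-322-5p, AGCAGCA, is shared by 10. The seed of miR-503-5p, AGCAGCG, belongs to miR-503-5p alone among the 1679. The opposite strand of Mir351, miR-351-3p, has the sequence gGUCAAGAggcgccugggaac, whose seed is also carried by no other mature microRNA of the table. The deposited counts are per precursor, so the 5p and 3p strands could not be told apart.

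Mir351 carried nearly all reads of the cluster. Over the 12 libraries it had 1323 counts, against 33 for Mir503 and 3 for Mir322, which is 97.4% of the 1359 counts on the precursors. The 4 control libraries had 103, 173, 136 and 226 counts of Mir351. The libraries labelled sgMiat-6 had 55 and 22, and those of sgMiat-96 had 144 and 86. The first Mtdh guide, sgMtdh-1, had 24 and 172, and the other, sgMtdh-2, had 145 and 37. Raw counts follow depth, so the shares below carry the comparison.

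On the deposited FPKM scale, which divides by length, Mir351 was the most abundant member by far. In the controls its FPKM ran from 30365 to 35857, and it ranked 3 or 4 among all microRNA precursors. It kept a rank of 3 to 5 in every library other than those labelled sgMiat-6, where it ranked 13 and 23. Mir503 ran from 0 to 1233 FPKM in the controls, and the longer host transcript from 1034 to 1193. Mir322 was listed at 0 in 11 of the 12 libraries, and its 3 counts were all in the first sgMiat-96 library. With counts of 0, the controls allow a Mir322 share of up to 0.127%, 0.0844%, 0.0995% and 0.0657% of their microRNA counts, which is the share of 3 counts and covers counting error only. The order Mir351, Mir503, Mir322 thus rests on well-separated levels for the first step. The step from Mir503 to Mir322 rests on 33 against 3 counts.

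The host count was almost entirely the precursor count. The longer host transcript had 1369 counts in all, and the 3 precursors inside it had 1359, which is 99.3% of it. The host and the precursor sum were equal in 7 of 12 libraries, and in the other 5 the host exceeded the sum by 1 to 4 counts. Only 10 counts, 0.730% of the host's total, lay on the host outside its precursors. The 2 host transcripts had the same counts in every library except the first of sgMtdh-2, with 157 and 153. Host and precursor rows therefore hold nearly the same reads counted again, and the host is no separate measure of transcription of the locus. Of the 3 other listed host genes with at least 10 counts, Mirlet7bhg had 825 counts against 819 on Mirlet7b and Mirlet7c-2. Mir17hg had 493 against 485 on Mir92-1, the precursor within its annotated span. Mir22hg had 12 counts, of which 8 were on Mir22.

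**Figure D2:**
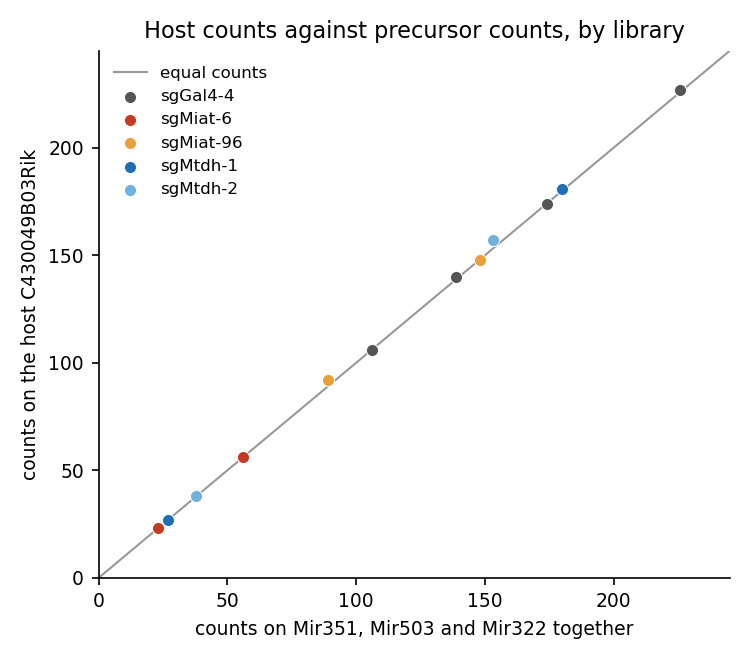
Counts on the longer transcript of the host C430049B03Rik (vertical axis) against the summed counts of Mir351, Mir503 and Mir322 (horizontal axis), 1 point per library, coloured by guide, with the line of equal counts. The points lie on the line or at most 4 counts above it.

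With the guides against Miat, the level of Mir351 split by guide. Of all microRNA counts, Mir351 took 4.35%, 4.87%, 4.51% and 4.95% in the controls (mean 4.67% ± 0.286, SD, n = 4). It took 1.40% and 0.743% in the libraries labelled sgMiat-6, and 4.07% and 6.11% in those of sgMiat-96. The exact binomial 95% intervals of the sgMiat-6 libraries ran from 1.06% to 1.82% and from 0.466% to 1.12%. The sgMiat-96 libraries lie on either side of the control range. These intervals cover counting error only, since counts without molecular identifiers are not independent molecules. In bulk RNA, fewer cells with the microRNA and less of it per cell cannot be told apart.

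In counts per 1000000 (CPM) of the 29 microRNAs with enough reads for a fit, scaled by TMM (a factor that sets most microRNAs level between libraries), the controls averaged 46849 ± 5454 (SD, n = 4). The sgMiat-96 libraries were at 46862 and 44428, within the control range of 42088 to 54040. The libraries labelled sgMiat-6 were at 11151 and 5636. The fitted log2 difference from control was -2.46 (SE 0.29) for sgMiat-6, a level 5.50-fold lower, and -0.04 (SE 0.25) for sgMiat-96. Between the guides the difference was 2.42 (SE 0.31), with sgMiat-96 higher. In the sgMiat-6 contrast 24.1% of the 29 microRNAs passed the edgeR threshold (adjusted p under 0.05), and in the sgMiat-96 contrast 27.6%. Since the members were chosen for these contrasts, nothing is read from Mir351 against these shares.

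Relative to the median microRNA, the sgMiat-6 difference of Mir351 lay between -2.50 and -2.48 under 5 scalings. The sgMiat-96 difference lay between 0.06 and 0.15 above its median under the same scalings. A scaling moves all microRNAs of a library alike, so these differences were bound to stay nearly the same. When all RNA classes were fitted together, the Mir351 difference relative to the median transcript under TMM was -2.92 for sgMiat-6 and -0.54 for sgMiat-96. In that fit the host, whose reads are nearly those of Mir351, had a difference of -2.82 with sgMiat-6 and -0.34 with sgMiat-96. Under other denominators both sgMiat-96 libraries lay below all controls. Mir351 was 0.580% and 0.592% of their counts outside Rn45s, against 0.672% to 0.777% in the controls. It was 4.82% and 7.89% of microRNA counts without Mir30d, against 9.05% to 11.3%. Per 1000000 of all counts it was 1724 and 1022, against 3006 to 3550. The sgMiat-6 libraries were lower still on each. The sgMiat-96 libraries, with Mir351 near the control level in TMM-scaled CPM, had at most 1 Miat count each, as the controls did. The libraries labelled sgMiat-6, with the lowest Mir351, had the high Miat counts given above. Mir30d had the largest mean CPM of the tested microRNAs over all libraries. It was low with both guides, at 15.4% to 22.8% of microRNA counts against 51.0% to 56.9% in the controls. In the first sgMiat-96 library Mir6538 was higher than Mir30d, at 504746 against 177361 CPM. The neural progenitor precursors took 2.77% to 3.62% in the libraries labelled sgMiat-6, 1.44% to 2.35% in those of sgMiat-96 and 3.01% to 3.71% in the controls. Within this list the members parted with sgMiat-6, where Mir92b had a fitted log2 difference from control of -2.83. Mir9-1, Mir9-2 and Mir9-3, which hold most of the sum, were at 0.19, -0.05 and 0.03. With sgMiat-96 Mir92b was at -1.72 and the Mir9 copies at -0.61, -0.78 and -0.73. The part of these changes in the Mir351 values was not tested.

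**Figure D3:**
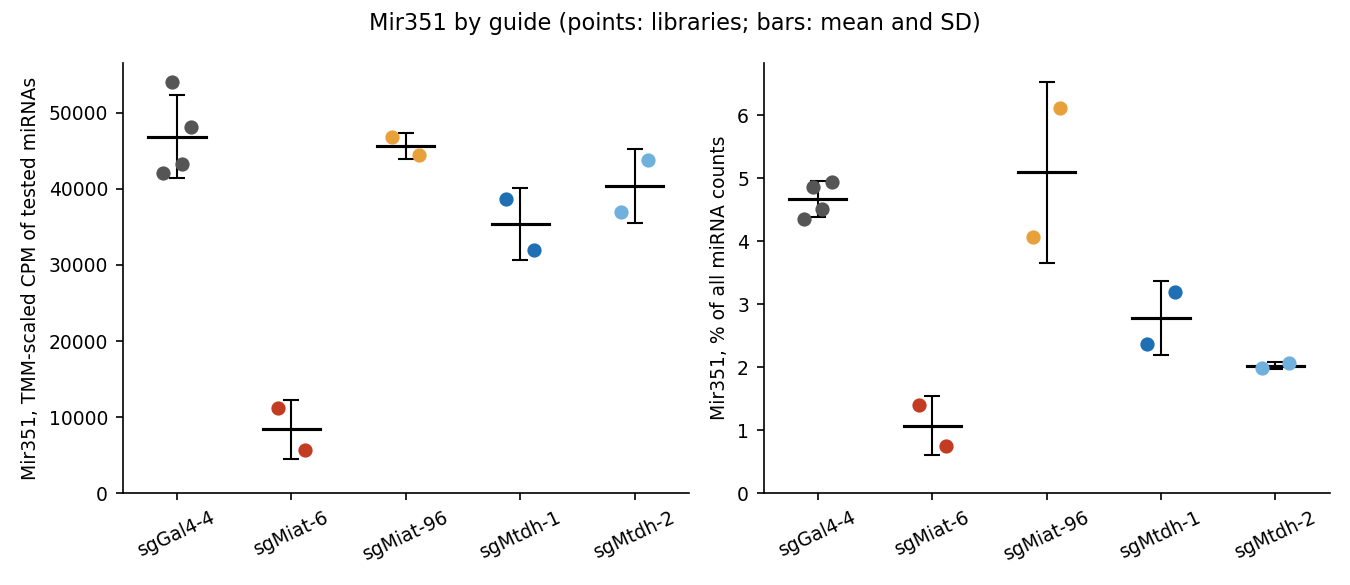
Mir351 by guide as TMM-scaled CPM of the tested microRNAs (left) and as a percentage of all microRNA counts (right). Points are libraries and bars are the mean and SD, and the sgMiat-6 points lie lowest in both panels, while the Mtdh points overlap the controls on the left and lie below them on the right.

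With the guides against Mtdh, Mir351 was a smaller share of the microRNA counts, while its TMM-scaled level did not pass the test. The Mtdh comparison shares its control libraries with the comparison that singled out Mir351. The sgMtdh-1 libraries had Mir351 at 2.36% and 3.19% of microRNA counts, and the sgMtdh-2 libraries at 1.99% and 2.06%. All 4 lay below all 4 controls, with means of 2.40% ± 0.551 and 4.67% ± 0.286 (SD, n = 4 each; exact permutation test, two-sided, p = 0.0286, the smallest this design can give; adjusted over 3 cluster measures, 0.0429). That pattern was common, since 27.6% of the 29 tested microRNAs had all Mtdh shares below all control shares. The host is among the 3 cluster measures and holds nearly the same reads as Mir351. These reads thus enter the adjustment again and lower the adjusted value, which is not read as a pass. The permutation treated the 4 Mtdh libraries as alike and left out which guide each had.

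Mir351 was also lower without overlap under 3 other denominators, but not as a share of the cluster's own counts, given below. Its share of counts outside Rn45s averaged 0.366% with the Mtdh guides and 0.724% in the controls. Its share of microRNA counts without Mir30d averaged 6.67% and 10.1%, and per 1000000 of all counts it averaged 1047 and 3301. Rn45s took 63.7% to 76.7% of all counts with the Mtdh guides and 53.0% to 55.4% in the controls, and the share outside Rn45s leaves it out. Each of these gave the same smallest exact permutation p of 0.0286. Such separation was common under these denominators, since 37.9% of the tested microRNAs showed it outside Rn45s, 32.1% of those other than Mir30d without Mir30d and 48.3% per 1000000 of all counts. The host gave 1121 ± 61.2 per 1000000 of all counts with the Mtdh guides and 3355 ± 213 in the controls (SD, n = 4 each; exact permutation p = 0.0286, adjusted 0.0429), where 36.1% of 147 transcripts of all RNA classes had all Mtdh libraries below all controls. It is the same reading as that of Mir351, because their reads are shared, and the adjustment counts that reading again.

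On the TMM scale the groups overlapped, whereas 13.8% of the 29 microRNAs had all Mtdh libraries below all controls on that scale. The sgMtdh-1 libraries were at 38705 and 32011 CPM and the sgMtdh-2 libraries at 36881 and 43793, the last above the lowest control. In the edgeR fit Mir351 differed from control by -0.34 (SE 0.21, 95% interval -0.78 to 0.11, adjusted p = 0.198) over both Mtdh guides. It did not pass the threshold, which 34.5% of the 29 microRNAs passed, and 13.8% of them in the lower direction. The sgMtdh-1 difference was -0.44 (SE 0.27, interval -1.01 to 0.13, edgeR adjusted p = 0.233), where 17.2% passed. The sgMtdh-2 difference was -0.23 (SE 0.26, interval -0.79 to 0.32, edgeR adjusted p = 0.500), where 17.2% passed. Over both guides Mir351 passed when the first library labelled sgMiat-6, which enters only through the shared spread, filter and scaling, was left out (-0.54, edgeR adjusted p = 0.0173).

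The guides against Mtdh were also compared with each other, a comparison that uses no library of the Miat or control groups as an arm. Mir351 was 0.20 higher on the log2 scale with sgMtdh-2 than with sgMtdh-1 (SE 0.31, interval -0.45 to 0.86, edgeR adjusted p = 0.785). No microRNA passed in this comparison by edgeR (0%), and 5 had an unadjusted p under 0.05. The share of microRNA counts had the opposite order, with means of 2.03% for sgMtdh-2 and 2.78% for sgMtdh-1.

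When all RNA classes were fitted together, Mir351 and its host passed the threshold over both Mtdh guides. Mir351 fell by 0.83 on the log2 scale (SE 0.25, edgeR adjusted p = 0.0351). The longer host transcript fell by 0.76 (SE 0.25, edgeR adjusted p = 0.0463) and the shorter by 0.77 (edgeR adjusted p = 0.0450). In this fit 18.4% of 147 transcripts passed, and 7.48% in the lower direction. Neither guide passed alone for Mir351, at -0.91 (edgeR adjusted p = 0.0840) with sgMtdh-1 and -0.75 (edgeR adjusted p = 0.114) with sgMtdh-2, where 10.9% and 18.4% of transcripts passed. Over 11 other settings the adjusted p of the host ran from 0.000644 to 0.379. The host call was lost with the replicate number as a block (-0.76, edgeR adjusted p = 0.259), with no filter (-1.02, edgeR adjusted p = 0.312), with 1 term per target (-0.77, edgeR adjusted p = 0.379) and when only the libraries of the contrast were fitted (-0.52, edgeR adjusted p = 0.116). It was also lost without control library 2 or 4, the second sgMiat-96 library, the first of sgMtdh-1 or the second of sgMtdh-2, with differences of -1.16 to -0.69 over all 12 libraries left out in turn.

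The scaling moved the median microRNA as well as Mir351. Over both Mtdh guides the median log2 difference of the 29 microRNAs was -0.16 with TMM, -0.13 with DESeq2 size factors, -0.38 with upper-quartile factors and -0.71 with library totals. Mir351 was at -0.34, -0.40, -0.58 and -0.95 under the same scalings. Its difference from the median thus stayed between -0.26 and -0.18, also when Mir30d was left out of the totals. A scaling moves all microRNAs of a library alike, so this difference could hardly change. Among all RNA classes the Mir351 difference from the median transcript was -0.77 under TMM. The split of microRNA calls into higher and lower moved with the scaling, from 6 and 4 under TMM to 4 and 5 under upper-quartile factors and 2 and 11 under library totals. Mir30d took 48.9% to 72.1% of microRNA counts with the Mtdh guides. The neural progenitor precursors took 0.296% to 1.56% with the Mtdh guides and 3.01% to 3.71% in the controls, and 2 of the 4, Mir9-2 and Mir92b, were called lower. The Mir9 copies may hold the same reads, so Mir9-2 may be no separate reading. The part of Mir30d and the neural progenitor precursors in the Mir351 values was not tested.

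**Figure D4:**
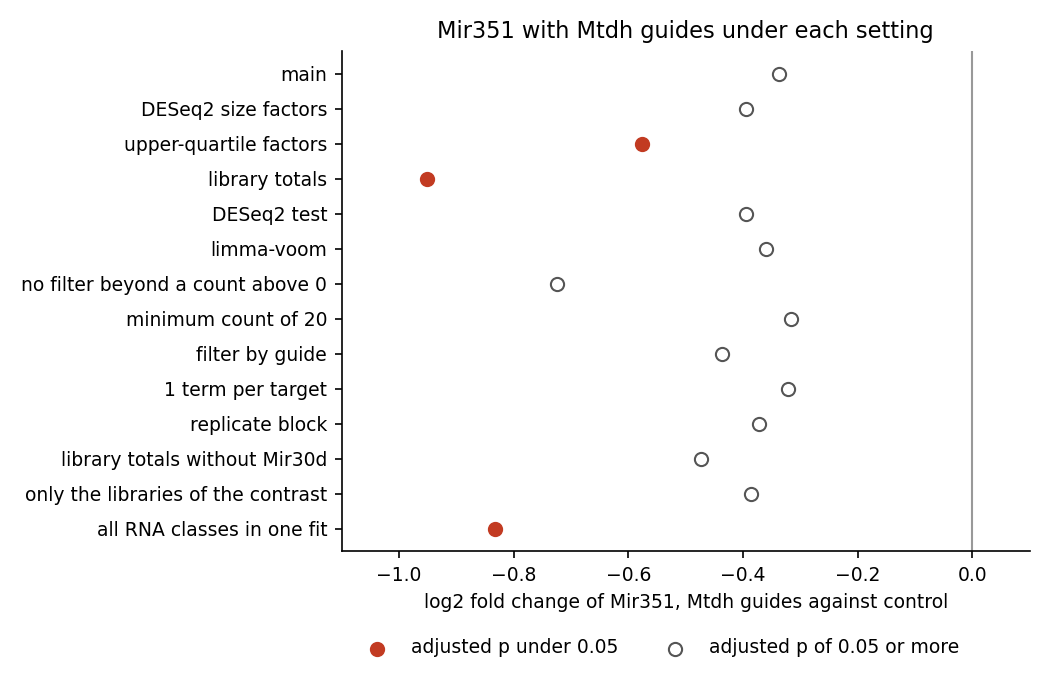
Log2 difference of Mir351 between the Mtdh guides and the controls (horizontal axis) under the fit described and 13 other settings (vertical axis), with filled points where the edgeR, limma or DESeq2 adjusted p was under 0.05. All points lie below 0, and the 3 filled ones are upper-quartile factors, library totals and all RNA classes in one fit.

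Mir503, whose product has a seed of its own, was rare in every library. It had 3, 1, 3 and 0 counts in the controls, and 1 in each library labelled sgMiat-6. The sgMiat-96 libraries had 1 and 3, those of sgMtdh-1 had 3 and 8, and those of sgMtdh-2 had 8 and 1. Together with Mir322 it took 0.152% ± 0.103 of microRNA counts with the Mtdh guides and 0.0636% ± 0.0593 in the controls (SD, n = 4 each). The groups overlapped (exact permutation p = 0.171), so no difference was detectable at this depth. Neither Mir503 nor Mir322 had enough reads to enter the fits.

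Within the cluster, Mir503 made up 7 of the 645 control counts on the precursors, or 1.09% (exact binomial 95% interval 0.437% to 2.22%, libraries pooled). With the Mtdh guides it made up 20 of 398, or 5.03% (3.10% to 7.65%). These pooled intervals cover counting error only and leave out how the libraries differ. Mir503 made up 2 of 79 in the libraries labelled sgMiat-6 and 4 of 237 in those of sgMiat-96. By library the control shares were 2.83%, 0.575%, 2.16% and 0%, and the Mtdh shares 11.1%, 4.44%, 5.23% and 2.63%. The highest control lies just above the lowest Mtdh library, and the difference did not reach the threshold (exact permutation p = 0.0571). This share was chosen after the values were seen.

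**Figure D5:**
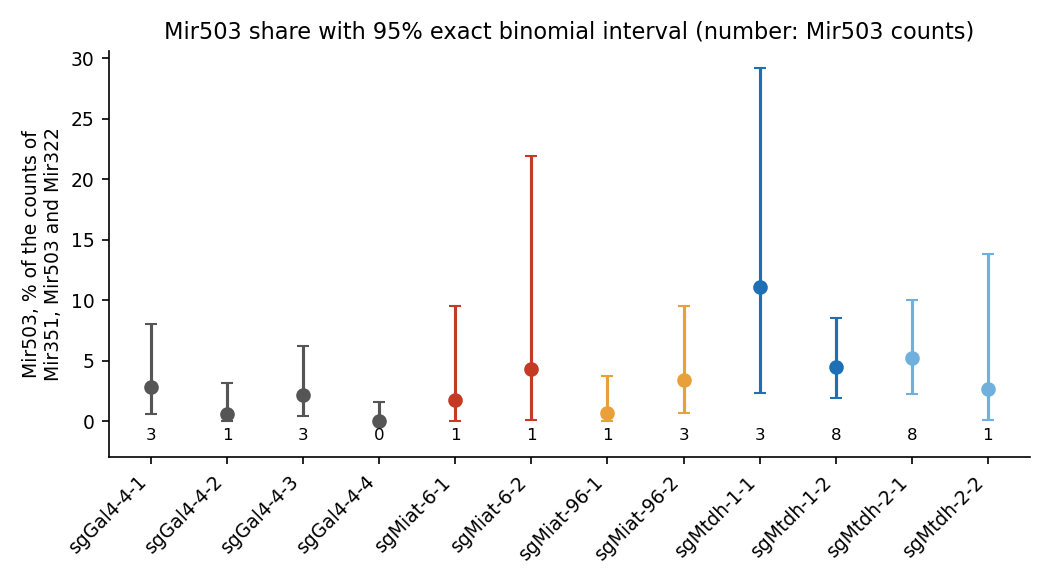
Mir503 as a percentage of the counts on Mir351, Mir503 and Mir322 together (vertical axis) in each library (horizontal axis), with exact binomial 95% intervals and the number of Mir503 counts below each point. The Mtdh libraries lie between 2.63% and 11.1% and the controls between 0% and 2.83%, with wide intervals in all.

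Of the precursors in the table with a product of the CCCUGAG seed, Mir351 had the most counts. Mir6367 and Mir6394 had none. The miR-125 family, known for its part in neural differentiation, had 64 counts of Mir125b-1, 23 of Mir125b-2 and 20 of Mir125a over the 12 libraries. Mir351 thus held 92.5% of the 1430 counts on these 4 precursors. By guide, with libraries pooled, the share was 93.3% in the controls, 86.5% in the libraries labelled sgMiat-6 and 95.8% in those of sgMiat-96. It was 92.5% for guide sgMtdh-1 and 88.8% for guide sgMtdh-2. The libraries labelled sgMiat-6 differed from each other, with 55 counts of Mir351 against 2 on the miR-125 precursors in the first and 22 against 10 in the second, where the share was 68.8%. None of the 3 miR-125 precursors had enough reads to be tested.

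The miR-15/16 family, most of whose products share their seed with miR-322-5p, is known for limiting cyclins and the survival factor Bcl2. Its precursors had 207 counts over the 12 libraries, against 3 for Mir322, with 74 for Mir15b, 67 for Mir15a, 49 for Mir16-1 and 15 for Mir16-2. Of 10 listed symbols, which include alternative names of the same gene, 8 are in the table, 5 had a count and none was tested. Mir497b, without a count, has a product of another seed, and Mir6342, Mir6353 and Mir6419, which carry the AGCAGCA seed outside the list, had no count either. They took 0.226% to 0.918% of microRNA counts. For the neighbours of the cluster on the X chromosome, 6 symbols were listed, which include alternative names of the same gene. Of these 4 are in the table and 1 had any count, Mir450-1 with 2 counts in the first library labelled sgMiat-6.

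On the X chromosome as a whole, Mir351 held 1323 of 1536 microRNA counts, or 86.1%, over 85 precursors of which 19 had a count. By guide, with libraries pooled, the share was 93.1% in the controls, 57.9% in the libraries labelled sgMiat-6 and 85.8% in those of sgMiat-96. By library it was 90.8% to 95.8% in the controls, 66.3% and 44.0% for sgMiat-6 and 88.9% and 81.1% for sgMiat-96. For guides sgMtdh-1 and sgMtdh-2 the pooled share came to 83.4% and 84.7%. Their libraries had 75.0% and 84.7% (sgMtdh-1) and 82.9% and 92.5% (sgMtdh-2). The other X-linked precursors summed to 56 counts in the libraries labelled sgMiat-6 and 47 in the controls, which have more libraries and more microRNA counts. As a share of microRNA counts they were higher with sgMiat-6, at 0.714% and 0.946%, than in the controls, at 0.199% to 0.504%. They took 0.509% and 1.42% in the sgMiat-96 libraries and 0.167% to 0.788% with the Mtdh guides. The most abundant of them was Mir92-2, of the Mir106a cluster, with 76 counts, followed by Mir672 with 44, Mir503 with 33 and Mirlet7f-2 with 16. Precursors with the same mature product can share reads, such as Mir92-2 and Mir92-1, Mir125b-1 and Mir125b-2, or the Mir9 copies. Whether their counts are divided or repeated is uncertain.

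The tested microRNAs most like Mir351 were found by Pearson correlation of log2 TMM-scaled CPM over the 12 libraries. This is a description with no test, since the libraries share their scaling factors. It also includes the libraries labelled sgMiat-6, whose low Mir351 singled out the members. Mir351 was at 11151 and 5636 CPM there and at 32011 or more elsewhere, so those libraries weigh heavily in the correlations. Mir30d came first (r = 0.48), then Mir423 (0.46) and Mir92b (0.43). Mir30d averaged 538318 CPM in the controls and 176564 and 170562 with sgMiat-6 and sgMiat-96. On this scale it was thus low with both Miat guides and not, like Mir351, with 1 of them. With the Mtdh guides Mir30d averaged 765301 (sgMtdh-1) and 1407010 (sgMtdh-2) CPM, above its control mean, while Mir351 averaged below its own. The second sgMtdh-1 library, at 490406, lay within its control range. Over both Mtdh guides the fitted log2 difference was 0.94 for Mir30d (edgeR adjusted p = 0.0201) and -0.34 for Mir351 (edgeR adjusted p = 0.198). TMM factors of 0.572 and 0.523 raise the CPM of the sgMtdh-2 libraries, so these values are not shares. The correlation with Mir30d was 0.08 when library totals replaced TMM, and Spearman's rho was 0.16. By rho Mir181a-2 came first (rho = 0.64, r = 0.28), so the order depended on the measure. Mir20a, of the Mir17hg cluster known for promoting proliferation, was the least like it (r = -0.89). Mir20a averaged 21945 CPM in the libraries labelled sgMiat-6 and 3758 in the controls. The sgMiat-96 average was 5742 CPM, and the Mtdh guides averaged 6359 (sgMtdh-1) and 7493 (sgMtdh-2). The correlation with Mir20a was -0.62 with library totals, and rho was -0.73.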

How the data were processed

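The authors deposited 1 table per library, with counts, FPKM and TPM per RefSeq non-coding transcript, per the file headers. The counts are whole numbers. The deposited FPKM and TPM are per 1000000 counts of the table. FPKM was used here to compare genes and to recover transcript lengths, and TPM was not used further. The submitters' processing notes name STAR, GRCm38 and mm10. The counter, its strand setting and its handling of reads matching several places were not given in the sources used here. RNA came from a Qiagen column kit.

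The 172 rows that repeated an entry with identical values were dropped before the fit of all RNA classes. They were not dropped from the library totals or from the microRNA counts, which were summed by symbol. Pairs of libraries of one group differed by more than sampling noise (chi-square per degree of freedom of at least 1.69), so none was merged for the tests. Shares described as pooled add up the counts of several libraries and leave out how these differ. The test was edgeR's quasi-likelihood test (edgeR 4.0.16, R 4.3.3) with 1 term per guide over all 12 libraries, TMM factors, filterByExpr by target (minimum count 10) and Benjamini-Hochberg adjustment within each contrast. It ran on the 29 microRNAs that passed, of 1116, and apart from that on 147 transcripts of all classes. Of the members, Mir351 passed in both and the 2 host transcripts in the second. The fitting script was tested on simulated counts. The 29 tested microRNAs held 85.0% to 94.4% of the microRNA counts, and the common dispersion was 0.0871. Shares were compared with exact permutation tests (scipy 1.17.1), two-sided, which treat the libraries of both Mtdh guides as alike.

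The members, lists and tests were chosen with earlier results of these data known. All 4 members were named, with list members of at least 10 counts, the 3 tested microRNAs most like Mir351 and the 1 least like it, Mir30d and Miat. Alternatives were other scalings, filters, tools and models, and leaving out each library.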

Additional observations from a re-analysis of the deposited data

Results flagged for a closer look

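In the 4 libraries with Miat guides, the second sgMiat-96 library stood apart in the share of Mir503, at 0.213% of its microRNA counts, while the other three lay between 0.0255% and 0.0338%. The value rests on 3 counts of Mir503 in a library with 1407 microRNA counts. It was the only one to stand apart in 21 groups of values checked for a single distant library, a check that chance alone passes for about 5% of groups.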

How the results depend on the processing

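Over both Mtdh guides Mir351 was below control under all 13 other settings and each left-out library. It passed the threshold with upper-quartile factors (-0.58, edgeR adjusted p = 0.0391), library totals (-0.95, 0.00369) and all RNA classes (-0.83, 0.0351). Over the 13 settings the adjusted p ran from 0.00369 to 0.856, the highest with no filter (-0.72). Leaving out 1 library gave -0.66 to -0.28, and Mir351 passed without the first sgMiat-6 library (-0.54, edgeR adjusted p = 0.0173). With sgMtdh-1 it passed under upper-quartile factors (-0.87, edgeR adjusted p = 0.0194). Leaving out 1 library gave -0.87 to -0.38 there, past the threshold without the first sgMiat-6 library (-0.66) or the second sgMtdh-2 library (-0.84). With sgMtdh-2 it passed under library totals (-1.201, edgeR adjusted p = 0.00414). The difference between the Mtdh guides changed sign with library totals (-0.50) and with only the libraries of the contrast (-0.045), and was not called in either. The cause of these changes was not tested.

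For the described Miat values, the average over both guides was -1.25, and it became -0.91 with library totals, -0.82 with 1 term per target, -1.75 without Mir30d in the totals and -1.61 in the fit of all classes. The sgMiat-6 value became -1.996 with library totals, -2.84 with the filter by guide, -2.80 without Mir30d and -2.84 in the fit of all classes. The sgMiat-96 value became -0.70 without Mir30d, -0.39 in the fit of all classes and 0.18 with library totals. The difference between the guides became 2.73 with the filter by guide and 2.10 without Mir30d. Leaving out 1 library gave -1.61 to -1.15 for the average, -3.11 to -2.22 for sgMiat-6, -0.31 to -0.07 for sgMiat-96 and 2.14 to 3.00 between them. The fit without Mir30d in the totals was chosen after seeing the data. With 1 term per target there is no value per guide.

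The 10 microRNAs called over both Mtdh guides became 3 with no filter and 3 to 14 when 1 library was left out, with 3 to 6 without any 1 control, 5 without the first sgMtdh-1 library and 3 without the first sgMtdh-2 library. The 27 transcripts of all classes became 73 with library totals, 14 with no filter, 16 with 1 term per target, 17 with only the libraries of the contrast, and 16 to 43 when 1 library was left out, with 16 without control library 4, 43 without the second sgMtdh-1 library and 17 without the second sgMtdh-2 library. These numbers of calls are not like for like, since the number tested changed too. It was 29 microRNAs in the fit described, 270 with no filter and 31 to 42 with 1 library left out. For all classes it was 147, 1735 and 144 to 174 transcripts. The host lost its call with no filter (-1.02, edgeR adjusted p = 0.312), with 1 term per target (-0.77) and with only the libraries of the contrast (-0.52). It ran from -1.16 to -0.69 when 1 library was left out, and lost the call without control library 2 or 4, the second sgMiat-96, the first sgMtdh-1 or the second sgMtdh-2 library. In the permutation tests, the Mir351 share of the cluster's own counts was 4.46 points lower with the Mtdh guides (difference -4.46, exact p = 0.0571, chosen after seeing the data). With 1 library left out, the Mir351 share differed by -2.53 to -2.13 points and the host by -2321 to -2163 per 1000000. Each such exact p was 0.0571, the smallest that 4 against 3 allows.

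Same-numbered libraries of different guides did not deviate together, with correlations of -0.32 to 0.41 and 4 of 14 distinct values over 0.1 (libraries of a guide with 2 mirror each other), so the numbers were taken to share only a name. With the replicate number as a block, 3 microRNAs and 13 transcripts were called over both Mtdh guides, Mir351 was at -0.37 (edgeR adjusted p = 0.432) and the host at -0.76 (edgeR adjusted p = 0.259). Depth limits Mir503 and Mir322 most, since their counts per library were 0 to 8.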
